A study of Mus musculus with 19 samples.

Results

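The 36 genes described here are markers of macrophages and monocytes, measured in RNA from mouse CD8 T lymphocytes that the labels call purified. Members were taken from a list of names, each through a probe set annotated to that gene alone, and where a gene had several such probe sets the brightest by its mean over all 19 arrays was to be used. All 36 were found, none with more than 1 such probe set, among 19938 genes measured. The genes are listed for what they are known to mark, and their level on each array is used as a gauge of myeloid RNA in the preparation. The label of T-cell RNA was checked first: 11 T-cell identity genes, among them Cd3e, Cd8a and Zap70, averaged between 11.74 and 12.70 on the log2 scale on every array. The members were nevertheless bright on some of them. Vcam1, for example, stood at 13.21 and 13.31 on both arrays of transferred control cells and at 6.75 and 7.01 on both arrays of Stat5ca cells at 72 h.

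Macrophages are resident phagocytes that differentiate from monocytes or from embryonic precursors under the growth factor receptor Csf1r and the transcription factor Spi1 (PU.1). In the spleen, the macrophages of the red pulp clear aged red cells and recycle their iron. They depend on the factor Spic, carry the surface proteins F4/80 (Adgre1) and Vcam1, break down haem with Hmox1 and export iron through ferroportin (Slc40a1). T cells do not normally use most of these genes, although a few, such as Ctss and Hmox1, are also used by other cell types.

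Cells of 16 arrays carried the transgenic T-cell receptor TCRP1A on a Rag-1-/- and B10.D2 background, so that they came from mice with no other T or B lymphocytes of their own. Naive cells (n = 4, arrays 33, 34, 35 and 36) were compared with control effector cells cultured with cognate antigen for 72 h (n = 4, arrays 1 to 4), and with effector cells at 72 h transduced with Stat5ca, a constantly active Stat5, and described as GFP+ (n = 2, arrays 9 and 10). Both kinds of effector cell were also transferred into congenic hosts and recovered from spleen and lymph nodes, the control cells on days 18 and 120 (n = 2, arrays 30 and 32) and the Stat5ca cells on day 20 (n = 4, arrays 11 to 14), while the series text speaks of recovery after more than 20 days. A further group of 3 arrays (39, 40 and 41) held T-betKO cells with Stat5ca recovered on days 14, 14 and 54. Their labels give the strain as C57BL/6 beside a B10.D2 background, activation with antibodies to CD3 and CD28, Stat5ca introduced after 24 h and another labelling protocol, and the series text counts them as TCRP1A cells. No transduction is named for the control cells, so active Stat5 cannot be told apart from transduction, nor at 72 h from selection by GFP. Whether arrays of the same group stand for different mice or different cultures is not in the labels, and each p-value therefore reflects only how far such arrays vary, which may be technical.

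Values are log2 signals, and a signal of 7.32, the 95th percentile of 1194 olfactory and vomeronasal receptor genes, serves as the background below which a gene is not told from an unexpressed gene. Array medians lay between 7.69 and 7.89. The RNA integrity number in the labels was 6 to 10, lowest on the T-betKO arrays 39 and 40 (7 and 6). Both Xist and the Y-linked gene Eif2s3y were bright on 5 arrays (10, 13, 30, 39 and 40), which thus held RNA of cells of both sexes. A gene is said to rise or fall where limma gave an adjusted p under 0.05 in that comparison, with adjustment by the Benjamini-Hochberg method over all 19938 genes. In such bulk RNA, fewer cells of a type and less RNA per cell cannot be told apart.

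**Figure D1:**
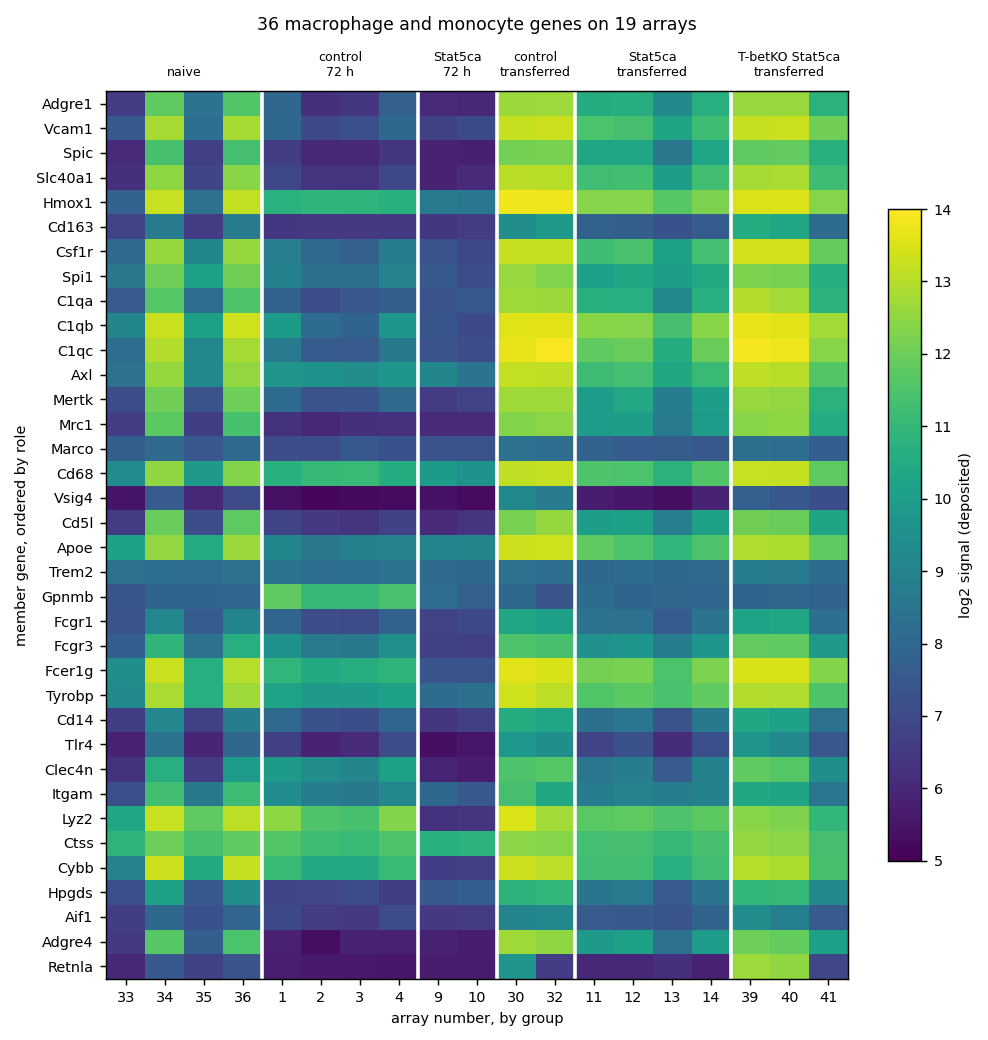
Log2 signal of the 36 macrophage and monocyte genes (rows) on each of the 19 arrays (columns), with arrays ordered by group and colour running from 5 to 14. Most genes were bright on naive arrays 34 and 36 and on all transferred arrays and dim on both Stat5ca arrays at 72 h, while Trem2 varied little and Gpnmb was bright on the 4 control arrays at 72 h.

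Most members varied together from array to array, as a block. Averaged over the 36 genes, the level was 7.68, 11.11, 8.35 and 10.94 on naive arrays 33, 34, 35 and 36. It was 8.55, 8.00, 8.02 and 8.50 on control arrays 1 to 4 at 72 h, and 7.13 and 7.07 on the Stat5ca arrays at 72 h. After transfer it was 11.79 and 11.60 in control cells, 9.85, 9.91, 9.10 and 9.89 in Stat5ca cells, and 11.77, 11.67 and 10.13 in T-betKO cells. The naive arrays alone covered nearly the whole range, from the level of 72 h cultures to that of transferred cells. The number of members above background was 19, 36, 24 and 34 on the naive arrays and 24, 18, 21 and 24 on the control arrays at 72 h. It was 14 and 11 on the Stat5ca arrays at 72 h, 36 and 35 on the transferred control arrays, 31 to 33 on the transferred Stat5ca arrays and 34 to 36 on the T-betKO arrays. Of the members, 8 lay above background on all 19 arrays and each of the 36 did so on at least 1.

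**Figure D2:**
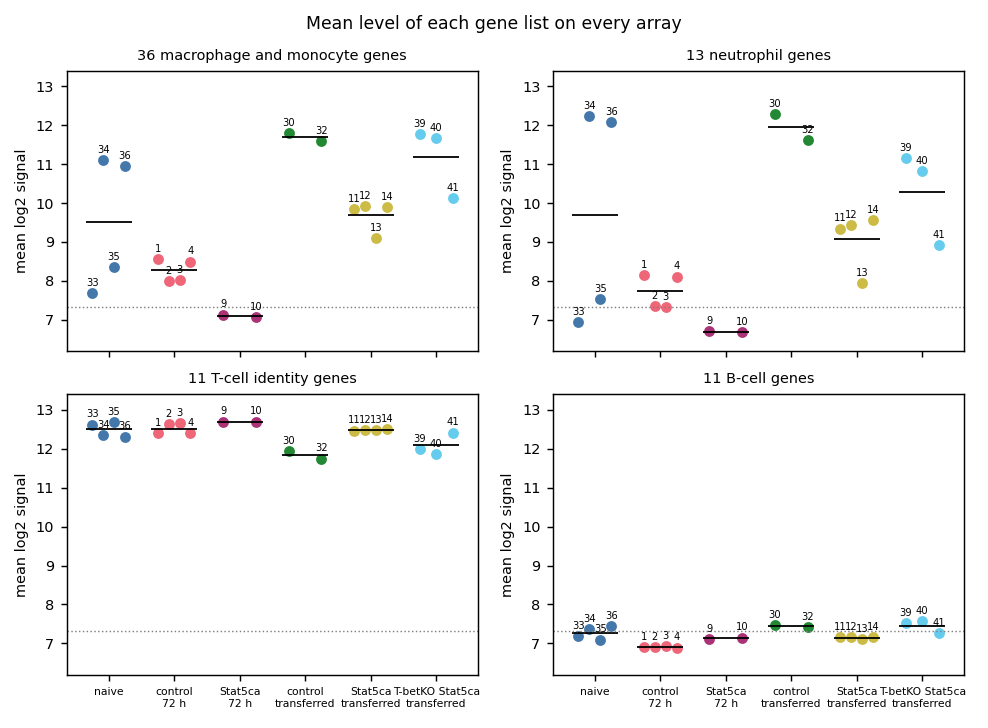
Mean log2 signal per array (points, by group; bars are group means) of the 36 macrophage and monocyte genes and of lists of 13 neutrophil, 11 T-cell identity and 11 B-cell genes, with the background of 7.32 as a dotted line. The macrophage and neutrophil lists had the same high and low naive arrays, the T-cell list stayed between 11.74 and 12.70, and the B-cell list stayed near background, between 6.89 and 7.58.

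Markers of some other cells moved with this block. The 13 neutrophil genes averaged 6.94, 12.22, 7.53 and 12.07 on naive arrays 33 to 36, 6.68 to 8.16 on all 72 h arrays, and 12.28 and 11.62 on the transferred control arrays. The 6 measured class II genes of antigen presentation averaged 10.49, 12.57, 11.26 and 12.45 on the naive arrays, and 8.69 and 8.95 on the Stat5ca arrays at 72 h. The T-cell identity genes were lower on the arrays where the members were high, averaging 12.62, 12.35, 12.69 and 12.31 on naive arrays 33 to 36 and 11.93 and 11.74 on the transferred control arrays. B-cell genes averaged 6.89 to 7.58 on every array, near background as a list, and 11 stromal genes 7.82 to 8.67. Within the B-cell list Cd79b lay well above background, averaging 10.1 in naive and 10.49 in transferred control cells. At 72 h it averaged 10.13 in control and 10.90 in Stat5ca cells. Single genes of these lists did differ between transferred control and naive cells. Of 11 B-cell genes 3 rose (Bank1 by 2.16) and 2 fell, and of the stromal genes 3 rose (Cdh5 by 1.66) and 0 fell. Of all genes 7.94% rose and 9.81% fell there. The 13 dendritic-cell genes averaged 8.37, 9.51, 8.88 and 9.43 on the naive arrays, 7.50 to 7.66 at 72 h and 9.78 and 10.08 in transferred control cells. Ccr9, a gene of this list, did not follow the block. It averaged 12.23 in naive, 6.94 in 72 h control and 9.68 in transferred control cells. From naive to transferred control cells it fell, while 9 of the 13 rose. The 42 other macrophage and monocyte genes listed averaged 8.21, 10.38, 8.70 and 10.26 on the naive arrays and 11.22 and 10.88 in transferred control cells. NK-cell genes, several of which effector T cells also use, averaged 8.36, 9.67, 9.16 and 9.37 on the naive arrays and were highest in transferred Stat5ca cells, at 10.72 to 11.45. The part of any of these cells in the results below was not tested.

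The 6 genes of red-pulp macrophages and iron handling differed widely within the naive group. Adgre1, which encodes the surface protein F4/80, read 6.65, 11.79, 8.43 and 11.54 on naive arrays 33 to 36. At 72 h it read 7.98, 6.26, 6.42 and 7.75 in control cells and 6.11 and 5.99 in Stat5ca cells. After transfer it read 12.66 and 12.67 in control cells, 10.56, 10.61, 9.27 and 10.65 in Stat5ca cells and 12.62, 12.60 and 10.78 in T-betKO cells. Both Stat5ca arrays at 72 h were thus under background, and naive arrays 34 and 36 lay closer to the transferred groups than to the other naive arrays. Vcam1, an adhesion molecule of red-pulp macrophages and stromal cells, read 7.56, 12.83, 8.30 and 12.82 on the naive arrays and 8.05, 6.99, 7.20 and 7.99 on the control arrays at 72 h. In transferred Stat5ca cells it read 11.44, 11.35, 10.27 and 11.19, below both transferred control arrays. Spic, the transcription factor on which red-pulp macrophages depend, read 6.09, 11.36, 6.72 and 11.35 on the naive arrays and at most 6.63 on all 6 arrays at 72 h. It was therefore under background on naive arrays 33 and 35 and throughout the 72 h cultures, while both transferred control arrays read 12.13 and 12.19.

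Slc40a1, the iron exporter ferroportin, had the widest spread of the naive group, with 6.24, 12.48, 6.86 and 12.40. It read 5.91 and 6.08 on the Stat5ca arrays of 72 h and 13.07 and 13.02 on the transferred control arrays, so that the group of naive cells spanned nearly that whole distance. Hmox1, haem oxygenase, differed from these genes at 72 h. It read 7.83, 13.24, 8.35 and 13.16 on the naive arrays but 10.74, 10.87, 10.85 and 10.70 on the control arrays at 72 h, which lay between both pairs of naive arrays with little spread. Both Stat5ca arrays at 72 h read 8.70 and 8.55. Cd163, the receptor for haemoglobin bound to haptoglobin, stayed near or below background (6.43 to 6.83) on naive arrays 33 and 35 and on all 72 h arrays. It read 9.46 and 9.82 in transferred control cells and 10.57, 10.33 and 8.13 in T-betKO cells.

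**Figure D3:**
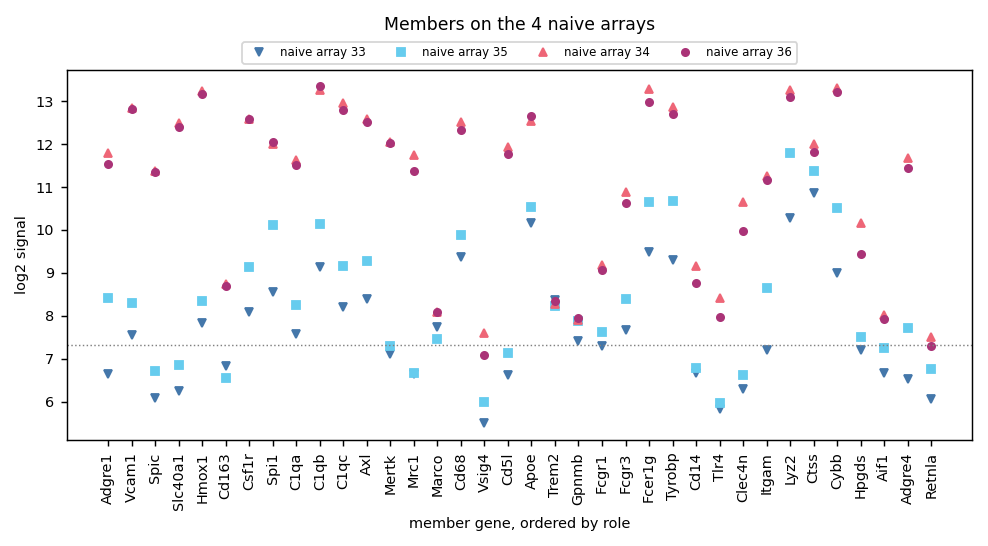
Log2 signal of each of the 36 genes on the 4 naive arrays (1 point per array), with background (7.32) as a dotted line. Arrays 34 and 36 lay above 33 and 35 for 35 genes, the exception being Trem2.

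In the naive group, arrays 34 and 36 both lay above 33 and 35 for 35 of 36 members, a pattern shown by 15.1% of all genes. The array orders counted here, and those below for the 72 h control arrays and for array 13, were picked after the levels were seen. Their counts are a description and no test. For 30 members the gap was more than 1 on the log2 scale, as for 2.67% of all genes. The 6 members without such a gap were Marco, Trem2, Gpnmb, Ctss, Aif1 and Retnla. All 13 neutrophil genes showed the gap of more than 1. S100a8, a calcium-binding protein of neutrophils and monocytes, read 6.60, 13.59, 7.00 and 13.09 on naive arrays 33 to 36, and the neutrophil granule gene Ngp read 6.81, 14.04, 9.19 and 13.98. None of the 11 T-cell identity genes (0 of 11) showed either pattern. Array 33 was the lowest naive array for 33 members (20.9% of all genes) and array 34 the highest for 31 (13.8%). The labels give the RNA integrity number as 9, 9, 8 and 9 for arrays 33 to 36 and name no difference in treatment between them.

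The lineage factor Spi1 read 8.55, 12.01, 10.12 and 12.04 on the naive arrays, 8.97, 8.32, 8.34 and 9.00 in control cells and 7.51 and 7.08 in Stat5ca cells at 72 h. After transfer it read 12.62 and 12.29 in control cells and 10.08, 10.40, 10.04 and 10.48 in Stat5ca cells. Csf1r, the receptor for macrophage colony-stimulating factor, read 8.09, 12.59, 9.15 and 12.58 on the naive arrays, 8.86, 8.09, 7.77 and 8.80 in control cells and 7.30 and 6.97 in Stat5ca cells at 72 h. Its transferred control arrays read 13.20 and 13.21, above each of the transferred Stat5ca arrays at 11.20, 11.40, 10.16 and 11.30. For both genes the transferred control arrays were thus the highest TCRP1A arrays and the Stat5ca arrays at 72 h the lowest.

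The complement genes C1qa, C1qb and C1qc encode the chains of C1q, which macrophages secrete. C1qb read 9.13, 13.27, 10.13 and 13.34 on the naive arrays, 9.89, 8.13, 7.91 and 9.73 in control cells and 7.40 and 6.98 in Stat5ca cells at 72 h. C1qc read 8.21, 12.96, 9.17 and 12.79 on the naive arrays, 8.69, 7.62, 7.58 and 8.64 in control cells and 7.29 and 7.12 in Stat5ca cells at 72 h. C1qa read 7.58, 11.63, 8.24 and 11.51 on the naive arrays and 7.79, 7.11, 7.46 and 7.74 in control cells at 72 h. All 3 genes had the same order of arrays within the control group at 72 h in 1 respect: arrays 1 and 4 lay above arrays 2 and 3.

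That pattern held for 29 of 36 members, against 23.4% of all genes, and for 12 of 13 neutrophil genes. The 7 exceptions were Hmox1, Cd163, Marco, Cd68, Hpgds, Adgre4 and Retnla. Xist, expressed from the inactive X chromosome of female cells, read 6.18, 12.92, 12.84 and 6.35 on arrays 1 to 4, and Eif2s3y read 10.62, 5.16, 4.93 and 10.77, so that arrays 1 and 4 held male cells and arrays 2 and 3 female cells. The part of sex in the members' levels was not tested.

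Promoter sequences were read from RefSeq (build GRCm38.p6) for the members, to see whether the core letters bound by Spi1 lie in front of them. Most members move together, and the list includes known targets of that factor, so a raised share is no independent support. Of 36 members, 25 had an entry, with 28 promoters between them, each running from 250 bases before to 50 after the start. The letters GAGGAAG, sought on both strands, lay in 13 of the 25 members (52%) and in 15.4% of all 27025 genes with an entry. The 13 included Marco, Trem2 and Retnla, which followed the other members less closely than most. The longer GAGGAAGT, which contains the first, lay in 5 members (20%) and in 3.69% of all genes. A recognition element of Maf factors joined to an AP-1 core lay in 0 of 25 members and in 0.167% of all genes. At so low a share hardly any match could be found among 25 members, so this 0 tells nothing about them. The 250 bases before the start are shown for 4 members of different roles, chosen after the matches were known, on the strand of the gene and with the match in capitals, where CTTCCTC is GAGGAAG on the opposite strand. C1qc lies on the minus strand at chr4:136892915-136893164, Fcgr1 on the minus strand at chr3:96293970-96294219, Mrc1 on the plus strand at chr2:14229164-14229413 and Hpgds on the minus strand at chr6:65144731-65144980.
C1qc: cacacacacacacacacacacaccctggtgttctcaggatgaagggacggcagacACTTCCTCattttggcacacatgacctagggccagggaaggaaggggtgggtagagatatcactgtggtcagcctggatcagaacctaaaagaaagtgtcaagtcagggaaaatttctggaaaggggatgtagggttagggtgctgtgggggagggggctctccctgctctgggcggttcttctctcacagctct
Fcgr1: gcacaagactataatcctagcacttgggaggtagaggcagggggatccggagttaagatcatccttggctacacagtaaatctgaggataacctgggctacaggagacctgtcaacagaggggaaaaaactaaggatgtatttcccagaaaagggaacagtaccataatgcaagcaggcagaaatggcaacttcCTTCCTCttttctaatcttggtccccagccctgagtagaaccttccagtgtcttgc
Mrc1: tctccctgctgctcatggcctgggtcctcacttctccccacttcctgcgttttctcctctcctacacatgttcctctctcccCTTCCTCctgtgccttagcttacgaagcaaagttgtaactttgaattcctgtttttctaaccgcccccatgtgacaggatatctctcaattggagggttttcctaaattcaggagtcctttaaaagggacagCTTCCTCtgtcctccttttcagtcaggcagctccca
Hpgds: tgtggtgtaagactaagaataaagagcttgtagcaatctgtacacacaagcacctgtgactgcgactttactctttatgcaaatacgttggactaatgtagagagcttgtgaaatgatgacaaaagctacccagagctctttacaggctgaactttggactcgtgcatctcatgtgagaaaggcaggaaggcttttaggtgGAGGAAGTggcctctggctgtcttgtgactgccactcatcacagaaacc
The first and the last hold the 8-letter form and Mrc1 holds 2 matches. A match describes the letters in these windows and is no binding site.

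Of the 10 scavenger and clearance genes, Axl, a receptor for apoptotic cells, read 8.40, 12.58, 9.27 and 12.53 on the naive arrays, 9.69, 9.58, 9.43 and 9.75 in control cells and 9.12 and 8.41 in Stat5ca cells at 72 h. It thus stayed above background on every array. Mertk, a related receptor, read 7.10, 12.06, 7.29 and 12.02 on the naive arrays and 12.71 and 12.70 on the transferred control arrays. Mrc1, the mannose receptor, read 6.64, 11.74, 6.67 and 11.38 on the naive arrays, 6.01 to 6.33 on all 72 h arrays and 12.34 and 12.42 on the transferred control arrays. Cd5l, a secreted protein of tissue macrophages, had the same shape, at 6.61, 11.94, 7.14 and 11.76 on the naive arrays and 6.07 to 6.89 at 72 h. Cd68, a lysosomal membrane protein, behaved like Hmox1 at 72 h, with 9.36, 12.51, 9.87 and 12.34 on the naive arrays and between 10.59 and 11.06 on the 4 control arrays. Apoe, a lipid carrier, read 10.15, 12.54, 10.53 and 12.65 on the naive arrays and was above background on every array.

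Vsig4, a complement receptor of tissue macrophages, was above background on 5 arrays. It read 9.20 and 8.66 in transferred control cells, 7.75 and 7.45 on T-betKO arrays 39 and 40 and 7.59 on naive array 34, and the remaining arrays included 7.17 on T-betKO array 41 and 5.36 to 5.85 in transferred Stat5ca cells. Marco, a scavenger receptor of marginal-zone macrophages, covered a narrow range, from 7.07 to 8.37 over all 19 arrays. Trem2, a lipid-sensing receptor, ranged from 8.01 to 8.77.

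Gpnmb, a transmembrane glycoprotein of phagocytes and other cells, had a pattern of its own among the members. It read 7.42, 7.90, 7.89 and 7.94 on the naive arrays, 11.82, 10.99, 10.99 and 11.42 on the control arrays of 72 h and 8.21 and 7.75 on the Stat5ca arrays of 72 h. After transfer it read 7.36 to 8.17 in all 3 groups. It was therefore bright only on the 4 control arrays at 72 h, with no overlap with any other array, where most members were dim. Against naive cells it rose by 3.52 ± 0.19 (adjusted p = 4.34e-09), an 11.4-fold change in signal. A rise at 72 h was not confined to Gpnmb: of the 42 other myeloid genes listed, 4 rose there and 17 fell. C3ar1, 1 of those that rose, averaged 7.70 in naive cells, 8.65 in control cells at 72 h and 6.65 in Stat5ca cells at 72 h.

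All 4 Fc receptor and adaptor genes were higher on each 72 h control array than on both 72 h Stat5ca arrays. Fcer1g, the signalling chain of Fc receptors, read 9.48, 13.28, 10.66 and 12.98 on the naive arrays and 10.92, 10.49, 10.59 and 10.85 in control cells at 72 h. Both Stat5ca arrays at 72 h read 7.36 and 7.31, at background. Tyrobp, the adaptor DAP12, read 10.20, 9.85, 9.87 and 10.17 in control cells and 8.14 and 8.34 in Stat5ca cells at 72 h. Fcgr3, a low-affinity receptor for IgG, read 9.57, 8.74, 8.64 and 9.52 in control cells and 6.77 and 6.70 in Stat5ca cells at 72 h. Fcgr1, the high-affinity receptor for IgG, was near background in both, at 7.93, 7.14, 7.07 and 7.84 against 6.86 and 6.98. In the naive group these genes split like the rest, Tyrobp at 9.30, 12.87, 10.67 and 12.71 and Fcgr3 at 7.67, 10.88, 8.38 and 10.64.

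Among the genes for pattern recognition and adhesion, Itgam, the integrin chain CD11b, read 7.20, 11.27, 8.65 and 11.17 on the naive arrays, 9.39, 8.80, 8.64 and 9.15 in control cells and 8.02 and 7.51 in Stat5ca cells at 72 h. Clec4n (dectin-2), a receptor for fungal mannans, read 6.30, 10.65, 6.61 and 9.97 on the naive arrays and 9.89, 9.41, 9.09 and 10.11 in control cells at 72 h, where it lay close to naive array 36. Its Stat5ca arrays at 72 h read 5.94 and 5.70, under background. Cd14, the co-receptor for bacterial lipopolysaccharide, read 6.67, 9.16, 6.79 and 8.77 on the naive arrays and 10.59 and 10.28 in transferred control cells. Tlr4, the receptor for lipopolysaccharide, read 5.84, 8.42, 5.98 and 7.98 on the naive arrays and 9.80 and 9.48 in transferred control cells.

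Lyz2, lysozyme of macrophages and neutrophils, read 10.28, 13.26, 11.80 and 13.10 on the naive arrays. At 72 h it read 12.46, 11.51, 11.39 and 12.34 in control cells and 6.30 and 6.36 in Stat5ca cells. On every other array it was at least 10.28, so that both Stat5ca arrays at 72 h stood apart from the other 17 arrays. Cybb, a subunit of the phagocyte NADPH oxidase, had the same low pair, with 11.11, 10.44, 10.43 and 11.06 in control cells against 6.67 and 6.69 in Stat5ca cells at 72 h. Ctss, the lysosomal protease cathepsin S, varied much less, at 10.85, 12.01, 11.37 and 11.82 on the naive arrays, 11.55, 11.22, 11.10 and 11.54 in control cells and 10.72 and 10.82 in Stat5ca cells at 72 h. Hpgds, a prostaglandin D synthase, was the only member to lie higher on both Stat5ca arrays than on all 4 control arrays at 72 h, reading 6.89, 6.91, 7.05 and 6.69 in control cells and 7.52 and 7.68 in Stat5ca cells. Aif1, the cytoplasmic protein Iba1, ranged from 6.48 to 9.41.

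Of the 2 remaining genes, Adgre4, a relative of F4/80 on monocytes and macrophages, read 6.53, 11.68, 7.72 and 11.44 on the naive arrays, 5.82, 5.33, 5.86 and 5.82 on the control arrays at 72 h and 12.70 and 12.49 on those of transferred control cells. Retnla, a secreted marker of alternatively activated macrophages, did not follow the block. It read 12.67 and 12.52 on T-betKO arrays 39 and 40 but 6.92 on array 41. In transferred control cells it read 9.65 on array 30 and 6.63 on array 32, and elsewhere it was at most 7.51. On the means of the groups, 18 of 36 members shared 1 order, from transferred control cells down through T-betKO, transferred Stat5ca, naive and 72 h control cells to 72 h Stat5ca cells. The remaining members fell into another 10 orders, and neighbouring groups in this order often overlapped: naive arrays 34 and 36 exceeded the transferred Stat5ca arrays for Adgre1, Vcam1 and Spic, while naive arrays 33 and 35 lay below them. Transferred control cells had the highest mean for 32 members (11.2% of all genes) and Stat5ca cells at 72 h the lowest for 28 (13.3%).

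The first comparison set control cells after 72 h with antigen against naive cells, so that antigen and culture cannot be told apart. The sex genes were uneven too: of Xist, Eif2s3y, Kdm5d and Uty, 1, 1, 3 and 1 lay above background on naive arrays 33 to 36. On control arrays 1 to 4 the counts were 3, 1, 1 and 3, and the part of sex was not tested. Against naive cells, 1 of 36 members rose, 19 fell and 16 passed no threshold, while of all genes 46.8% were called, 22% up and 24.9% down. The median change of the members was −1.24 on the log2 scale, beside −0.09 over all genes. Adgre4 fell by 3.63 ± 0.88 (SE; adjusted p = 0.00375), from a naive mean of 9.34 to 5.71, and by 2.02 when counted from background. Mrc1 fell by 2.88 ± 0.93, Slc40a1 by 2.83 ± 1.11, Vcam1 by 2.82 ± 0.94, Cd5l by 2.75 ± 0.95 and C1qc by 2.65 ± 0.84. Counted from background, Mrc1, Slc40a1 and Cd5l fell by 1.79, 2.17 and 2.04. Of the red-pulp genes 5 of 6 fell, as did both lineage genes and all 3 complement genes (Csf1r by 2.22 ± 0.79, C1qb by 2.55 ± 0.79), but none of the 4 Fc receptor and adaptor genes (0 of 4) and none of the pattern recognition genes (0 of 4). Gpnmb was the member that rose.

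Most of these falls rested on naive arrays 34 and 36. The groups overlapped for most of the called members: of the 36, 7 were lower on each control array than on every naive array (17.8% of all genes) and 1 was higher (18.4%). Without array 34 the count of called members dropped to 9, without array 36 to 7, without control array 2 to 11 and without control array 3 to 13, and it rose to 27 without array 33. Gpnmb, Spi1, Marco, Vsig4, Apoe, Hpgds and Adgre4 were called with any 1 array left out. A fit without arrays 34 and 36, chosen after their levels were seen and because of the members' levels, gave 13 called members, 9 up and 4 down (Marco, Vsig4, Apoe and Adgre4), with 42.1% of all genes called and a median member change of −0.05. In that fit Hmox1 changed by 2.71, Cd68 by 1.23, Clec4n by 3.17 and Cybb by 1.01, all upwards and called, while Adgre1 changed by −0.43 and Vcam1 by −0.37, neither of them called. A fit without arrays 33 and 35, chosen in the same way, gave 34 called members, 1 up and 33 down, with 41.6% of all genes called and a median of −2.46. There Adgre1 changed by −4.56, Vcam1 by −5.27 and Hmox1 by −2.41. The direction for Hmox1, Cd68 and Cybb thus depended on which naive arrays were used, while Gpnmb was up by 3.65 and 3.38 in these fits and Apoe down (−1.44 and −3.69) in both. Of the other 42 myeloid genes listed, 4 rose and 17 fell in the fit with all arrays, and of the 13 neutrophil genes 3 fell.

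**Figure D4:**
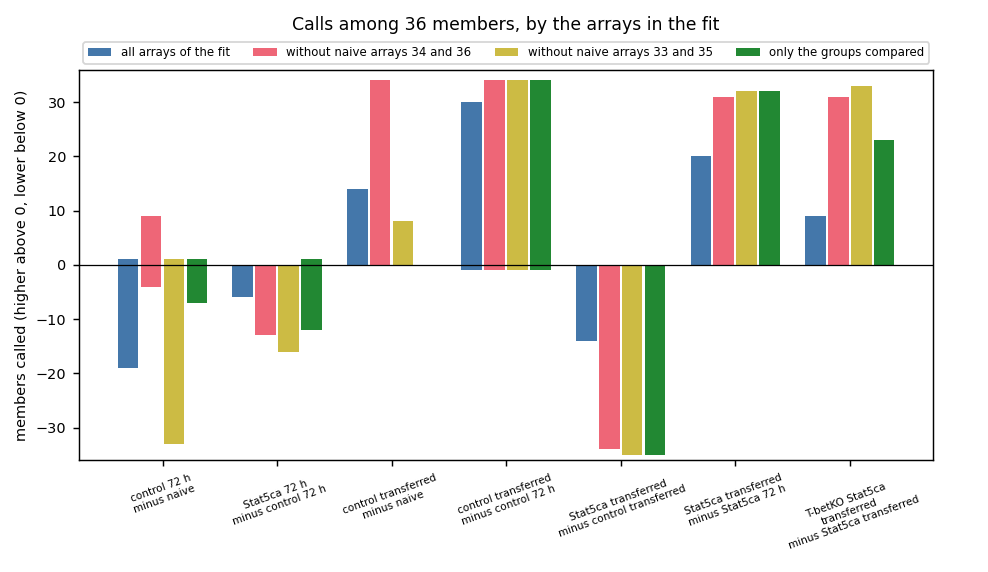
Number of the 36 members called up (above 0) and down (below 0) in 7 comparisons, in the fit with all arrays, in fits lacking naive arrays 34 and 36 or naive arrays 33 and 35, and with only the groups compared. For 72 h control cells against naive cells the counts ran from 9 up and 4 down without arrays 34 and 36 to 1 up and 33 down without arrays 33 and 35.

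Next, both Stat5ca arrays at 72 h were set against the 4 control arrays of that time. Active Stat5 cannot be told apart here from transduction or from selection by GFP. The sex genes were uneven here as well: of Xist, Eif2s3y, Kdm5d and Uty, 3 and 4 lay above background on Stat5ca arrays 9 and 10. On control arrays 1 to 4 the counts were 3, 1, 1 and 3, and the part of sex was not tested. Of the members 6 fell and 0 rose (9 and 0 by limma at an unadjusted p under 0.05), where of all genes 5.72% were called, 3.35% down and 2.37% up. The median change was −0.89, beside 0.04 over all genes. Lyz2 fell by 5.59 ± 0.60 (adjusted p = 0.000157), and by 4.60 counted from background. Cybb fell by 4.08 ± 0.85, Clec4n by 3.80 ± 0.93, Fcer1g by 3.38 ± 0.74, Gpnmb by 3.32 ± 0.23 and Trem2 by 0.30 ± 0.08. Counted from background, Cybb and Clec4n fell by 3.44 and 2.30. None of the 6 red-pulp and iron-handling genes passed (0 of 6), with Adgre1 at −1.05 ± 1.07 (adjusted p = 0.641) and Spic at −0.41 ± 1.18 (adjusted p = 0.890).

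For 24 members both Stat5ca arrays lay below all 4 control arrays (14.7% of all genes), and for 1, Hpgds, above them (18.2%). Of those not called, Fcgr3 changed by −2.38 ± 0.68 (adjusted p = 0.0544), Hmox1 by −2.17 ± 1.17 (adjusted p = 0.328) and Tyrobp by −1.78 ± 0.68 (adjusted p = 0.151). These standard errors come from a spread shared by all 16 TCRP1A arrays, to which the naive arrays contribute. With these 2 groups alone in the fit, 13 members were called, Hpgds up and 12 down, with 4.65% of all genes called, and the 12 included Hmox1, Spi1, Axl, Fcgr3, Tyrobp and Itgam. Leaving out Stat5ca array 9 or 10 left 2 called members in each case, and Gpnmb and Lyz2 were called with any 1 array left out. Without control array 1 or 4 the count was 4. Of the 13 neutrophil genes 0 were called, but for 10 both Stat5ca arrays lay below all 4 control arrays, as for 21 of 42 other myeloid genes. The median change of the neutrophil genes was −0.73. Of the class II genes 3 of 6 fell, while H2-DMa was higher by 0.79 and not called. Among those that fell was H2-Ea, whose arrays read 11.73, 10.62, 10.48 and 11.61 in control and 6.63 and 7.01 in Stat5ca cells.

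Transferred control cells (n = 2) were compared with naive cells (n = 4) and with 72 h control cells (n = 4), and these comparisons share the transferred arrays. Against naive cells 14 members rose and 0 fell (31 and 0 by limma at an unadjusted p under 0.05), where 7.94% of all genes rose and 9.81% fell. The median member change was 2.23, beside −0.12 over all genes. Adgre4 rose by 3.26 ± 1.07, Clec4n by 3.18 ± 0.93, C1qa by 2.94 ± 0.89, Tlr4 by 2.59 ± 0.60, Cd14 by 2.59 ± 0.60 and Vsig4 by 2.39 ± 0.40. Counted from background, Vsig4 rose by 1.61 and Tlr4 by 2.32. The red-pulp genes with the widest naive spread did not pass, among them Slc40a1 at 3.55 ± 1.36 (adjusted p = 0.0826) and Adgre1 at 3.06 ± 1.07 (adjusted p = 0.0602). For 30 members both transferred arrays lay above all naive arrays (12.1% of all genes) and for 0 below them (30.1%). The count moved with single arrays, to 2 and 3 without transferred array 30 or 32, 8 without naive array 33 or 35, and 31 and 30 without naive array 34 or 36.

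Without naive arrays 34 and 36, 34 members were called, all upwards, with 28.9% of all genes called and a median change of 3.55, and Adgre1 changed by 5.13. Without naive arrays 33 and 35, 8 were called, with 8.62% of all genes called and a median of 0.69. Those 8, again upwards, were Cd163, Vsig4, Apoe, Fcgr1, Cd14, Tlr4, Hpgds and Aif1, Vsig4 by 1.59 and Aif1 by 1.13. With only these groups in the fit, limma called 0 members, beside 11 at an unadjusted p under 0.05 and 1.62% of all genes called. Vsig4 and Aif1 were called with any 1 array left out of the fit with all groups. The T-cell identity genes had 10 of 11 members falling in this comparison. Xist averaged 9.33 in transferred control and 12.77 in naive cells, and Eif2s3y 9.94 and 5.66, so that sex and group cannot be fully told apart.

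Against 72 h control cells, transferred control cells had 30 members higher and 1 lower, where of all genes 37.5% were called, 13.1% up and 24.4% down, with a median member change of 3.21 beside −0.04. This was the comparison with the least dependence on single arrays, with 27 to 31 called. Adgre4 rose by 6.89 ± 1.07 (adjusted p = 0.000115), or by 5.28 counted from background. Slc40a1 rose by 6.38 ± 1.36, Mrc1 by 6.16 ± 1.14, Spic by 5.89 ± 1.18, Cd5l by 5.74 ± 1.16 and Vcam1 by 5.70 ± 1.15. Counted from background, Slc40a1, Mrc1, Spic and Cd5l rose by 5.73, 5.06, 4.84 and 5.04. All 3 complement genes rose, C1qc by 5.68 ± 1.02, C1qa by 5.16 ± 0.89 and C1qb by 4.66 ± 0.96, as did Csf1r (4.83 ± 0.96), Spi1 (3.79 ± 0.69) and all 4 Fc receptor and adaptor genes. The members that passed no threshold included Hmox1 at 2.99 ± 1.17 (adjusted p = 0.0568), Itgam at 1.85 ± 0.81 (adjusted p = 0.0904) and Lyz2 at 1.20 ± 0.60 (adjusted p = 0.138). Gpnmb fell by 3.63 ± 0.23. For 34 members both transferred arrays lay above all 72 h control arrays (20.2% of all genes) and for 1 below them (31.9%). Neutrophil genes rose in 10 of 13 cases and T-cell identity genes fell in 8 of 11.

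The control arrays of day 18 and day 120 were close for most members, 22 of which were higher on day 18 (54.4% of all genes). Lyz2 read 13.50 and 12.75, Itgam 11.33 and 10.36 and Retnla 9.65 and 6.63 on days 18 and 120. Erythroid genes differed in the other direction, averaging 8.56 on day 18 and 11.69 on day 120. With 1 array a day, these differences have no replicate.

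The 4 transferred Stat5ca arrays were compared with both transferred control arrays, in cells recovered from a host. Active Stat5 cannot be told apart here from transduction. Of the members 14 fell and 0 rose (29 and 0 by limma at an unadjusted p under 0.05), where 8.46% of all genes fell and 16.9% rose. The median change was −2.12, beside 0.08 over all genes. Vsig4 fell by 3.31 ± 0.40 (adjusted p = 7.61e-05), or by 1.61 counted from background, since its Stat5ca arrays all lay below it. Clec4n fell by 3.08 ± 0.93, Tlr4 by 2.78 ± 0.60, Hpgds by 2.59 ± 0.61, Cd14 by 2.23 ± 0.60 and Spi1 by 2.20 ± 0.69. Counted from background, Tlr4 fell by 2.32. The red-pulp and complement genes, at similar sizes, mostly passed no threshold, with Adgre1 at −2.39 ± 1.07 (adjusted p = 0.121), Csf1r at −2.19 ± 0.96 (adjusted p = 0.115), C1qa at −2.38 ± 0.89 (adjusted p = 0.0651) and Lyz2 at −1.47 ± 0.60 (adjusted p = 0.0895).

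For 35 of the 36 members, however, all 4 Stat5ca arrays lay below both control arrays (16.1% of all genes). With only these groups in the fit the same number was called, 35, all downwards, with 33.8% of all genes called. The naive arrays enter only the shared spread here, and the counts were 34 when arrays 34 and 36 were left out and 35 when arrays 33 and 35 were, with 28.6% and 31.4% of all genes called. Without control array 30 or 32 the count was 7. Vsig4, Fcgr1, Tlr4, Ctss and Aif1 were called with any 1 array left out. Retnla changed by −2.11 ± 0.55 with all arrays and by −0.61 without control array 30. The T-cell identity genes went the other way, with 9 of 11 up, and 3 of 13 neutrophil genes and 24 of 42 other myeloid genes fell. All 4 Stat5ca arrays also lay below both control arrays for 13 of 13 neutrophil genes and 34 of 42 other myeloid genes. The median change of the neutrophil genes was −3.05, so the drop was not particular to the members. The control arrays came from days 18 and 120 and the Stat5ca arrays from day 20, so that day and group cannot be fully told apart. Sex was not balanced either: of Xist, Eif2s3y, Kdm5d and Uty, 4 and 3 lay above background on control arrays 30 and 32. On Stat5ca arrays 11, 12, 13 and 14 the counts were 1, 1, 4 and 1, and the part of sex was not tested.

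**Figure D5:**
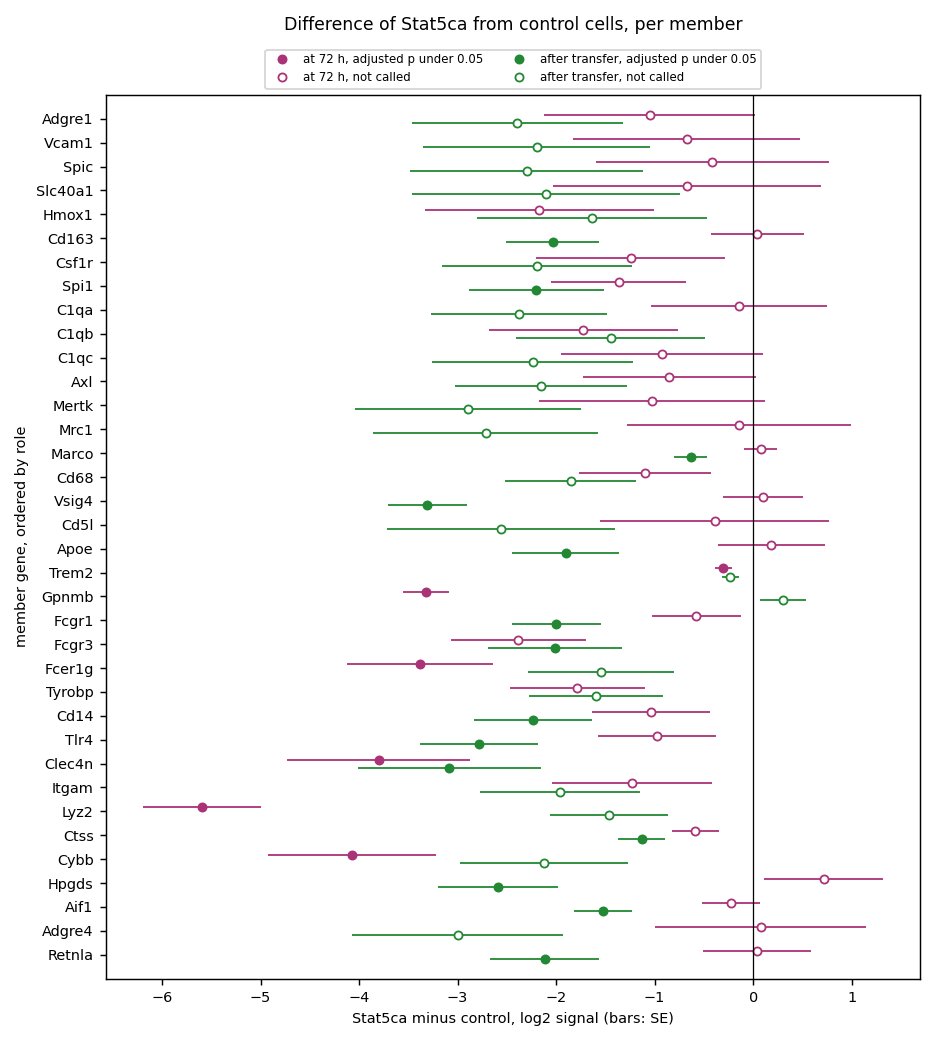
Log2 change of Stat5ca against control cells for each of the 36 genes, at 72 h and after transfer (points; bars are SE from limma; filled points have an adjusted p under 0.05). Lyz2 stood at −5.59 and Gpnmb at −3.32 at 72 h, and Vsig4 at −3.31 after transfer, or −1.61 counted from background.

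Array 13 was the lowest transferred Stat5ca array for 31 members (30.3% of all genes), the exceptions being Marco, Trem2, Gpnmb, Itgam and Retnla. Spic read 8.57 on array 13 and 10.29 to 10.30 on the other 3, and Mertk read 8.77 beside 9.97, 10.43 and 10.06. All 13 neutrophil genes and all 5 measured erythroid genes were also lowest there. Array 13 was the array of its group with a bright Y-linked gene, Eif2s3y reading 10.44 there and at most 5.16 on the others, and Xist read 10.09 there and 12.67 to 12.73 on the others. The members called numbered 11 without array 13.

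The difference of Stat5ca from control cells, called the Stat5ca effect here whatever its cause, was compared between 72 h and transfer as an interaction. Of the members 2 had a higher and 5 a lower change after transfer than at 72 h, where 12.3% and 5.48% of all genes were called in these directions. The median was −1.30, beside 0.01 over all genes. Lyz2 differed by 4.12 ± 0.85 (adjusted p = 0.00395), from −5.59 at 72 h to −1.47 after transfer, and Gpnmb by 3.63 ± 0.33 (adjusted p = 2.18e-05). Vsig4 differed by −3.41 ± 0.57 (adjusted p = 0.00102) and Hpgds by −3.31 ± 0.86 (adjusted p = 0.0150). Cd163 (−2.07 ± 0.67), Aif1 (−1.30 ± 0.41) and Marco (−0.71 ± 0.23) completed the 5. Cd163, Aif1, Marco and Vsig4 had means under background in both groups at 72 h, and counted from background Vsig4 differed by −1.61, Cd163 by −2.03, Hpgds by −2.87 and Lyz2 by 3.14. Lyz2, Gpnmb and Vsig4 were called with any 1 array left out, while the count was 3 without Stat5ca array 10, 4 without array 2, 9, 12, 13, 30 or 32, and 5 without each of the others. It was 21 with only these groups in the fit (24.5% of all genes called), and 22 without either pair of naive arrays (22.1% and 25.1% of all genes called), which enter only the shared spread.

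Transferred Stat5ca cells were also compared with Stat5ca cells at 72 h (n = 2). Of the members 20 rose and 0 fell (29 and 0 by limma at an unadjusted p under 0.05), where 8.61% of all genes rose and 12.7% fell. The median change was 2.81, beside −0.02 over all genes. Lyz2 rose by 5.33 ± 0.60 (adjusted p = 1.93e-05), Slc40a1 by 4.95 ± 1.36, C1qb by 4.93 ± 0.96, Fcer1g by 4.66 ± 0.74, Cybb by 4.40 ± 0.85 and C1qc by 4.36 ± 1.02. Counted from background, Lyz2 rose by 4.34, Slc40a1 by 3.62, C1qb by 4.80, Cybb by 3.77 and C1qc by 4.25. Itgam changed by 1.12 ± 0.81 (adjusted p = 0.409) and Axl by 2.23 ± 0.88 (adjusted p = 0.0893). All 4 transferred arrays lay above both 72 h arrays for 32 members (21.1% of all genes) and below them for 0 (25.9%). Without Stat5ca array 9 or 10 at 72 h the count was 7 and 5. C1qb, Fcer1g, Tyrobp, Lyz2 and Cybb were called with any 1 array left out. In a fit of these groups alone 32 members were called, with 31.4% of all genes called. Of the class II genes 5 of 6 rose, and of the T-cell identity genes 4 of 11 fell. Of Xist, Eif2s3y, Kdm5d and Uty, 3 and 4 lay above background on 72 h arrays 9 and 10. On transferred arrays 11, 12, 13 and 14 the counts were 1, 1, 4 and 1, and the part of sex was not tested.

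The last comparison set T-betKO Stat5ca cells (n = 3) against transferred Stat5ca cells (n = 4). These groups differ in T-bet but also in strain label, stimulus, day and labelling protocol, so that these cannot be told apart. Sex was not balanced either: of Xist, Eif2s3y, Kdm5d and Uty, 4, 4 and 3 lay above background on T-betKO arrays 39, 40 and 41. On Stat5ca arrays 11, 12, 13 and 14 the counts were 1, 1, 4 and 1. Of the members 9 rose and 0 fell (20 and 0 by limma at an unadjusted p under 0.05), where 7.03% of all genes rose and 13.8% fell. The median change was 1.51, beside −0.02 over all genes. Retnla rose by 4.68 ± 0.98 (adjusted p = 0.00375), or 3.38 counted from background, on the strength of arrays 39 and 40. Clec4n rose by 2.48 ± 0.85, Hpgds by 2.10 ± 0.57, Cd163 by 2.07 ± 0.53, Tlr4 by 1.93 ± 0.59 and Vsig4 by 1.83 ± 0.34. Vsig4 was at a mean close to background in T-betKO cells, and its change counted from background was 0.14, while that of Tlr4 was 1.47. Trem2, which varied little on the other arrays, rose by 0.48 ± 0.11. Adgre1 changed by 1.73 ± 0.93 (adjusted p = 0.211) and Csf1r by 1.86 ± 0.84 (adjusted p = 0.129). Of the 42 other macrophage and monocyte genes 15 rose and 2 fell, of the 13 neutrophil genes 0 were called, and of the T-cell identity genes 1 of 11 rose and 5 fell. Of the NK-cell genes 5 of 7 fell. The part of these lists in the members' changes was not tested.

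All 36 members were lowest on the day 54 array of this group (35% of all genes). Adgre1 read 12.62 and 12.60 on day 14 and 10.78 on day 54, and Csf1r read 13.39, 13.37 and 11.86 in the same order. For 24 members all 3 T-betKO arrays lay above all 4 Stat5ca arrays (10.5% of all genes) and for 0 below them (19.9%). The count of called members was 3 without array 39 or 40, 17 without array 41, 5 without Stat5ca array 11 or 13 and 6 without array 12 or 14. With the RNA integrity number as a covariate it was 1. It was 31 when naive arrays 34 and 36 were left out and 33 when 33 and 35 were, which enter only the shared spread, with 23.7% and 26.4% of all genes called. Vsig4, Trem2 and Retnla were called with any 1 array left out. H2-Ea, a class II gene that C57BL/6 mice do not express, read 6.51, 6.55 and 6.97 on the T-betKO arrays and 12.91 to 13.08 on the transferred Stat5ca arrays, while the macrophage genes above were bright on both.

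The members varied together inside the groups as well. As a description over the 19 arrays, each array's deviation from its group mean correlated with the mean deviation of the other members at a Pearson r of 0.989 for C1qa, 0.988 for Csf1r and 0.986 for Fcgr3, and at 0.392 for Trem2, 0.432 for Gpnmb and 0.493 for Retnla. These points share arrays, and the 4 naive arrays differed widely. The genes outside the list whose deviations were most like the members' mean were Igf1 (r = 0.996), Sirpa (0.993), Lgmn (0.992), I830077J02Rik (0.991), Sdc3 (0.989), Trf (0.988), Ifitm6 (0.988), Ltf (0.988), Pilrb1 (0.987) and Clec4a2 (0.987). Sirpa encodes an inhibitory receptor of myeloid cells, Lgmn a lysosomal protease, Trf transferrin and Ltf the neutrophil granule protein lactoferrin.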

How the data were processed

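RNA of purified mouse CD8 T lymphocytes, 0.125 µg per sample, was measured on 19 Affymetrix arrays. The authors deposited 1 log2 signal for each probe set and array, made with Affymetrix Expression Console, per the submitters' processing notes. Its version, summarization and normalization were not given in the sources used here, and the log2 scale was read from the values, which ran from 3.13 to 14.94. Values were used as deposited, for 35557 probe sets. Of these, 21789 carried 1 gene, 1621 several and 12147 none. Each gene was represented by its brightest single-gene probe set over all arrays (19938 genes).

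A linear model without covariates was fitted to all genes (lmFit and eBayes of limma 3.58.1, under R 4.3.3), with Benjamini-Hochberg adjustment within each comparison. For 7 of the 8 comparisons a single fit held the 16 TCRP1A arrays, whose pooled spread also served groups of 2, and all 19 arrays entered the T-betKO comparison. Errors of changes are standard errors. The number of arrays limits the precision. For members with a group mean under 7.32, the change was also counted from that background.

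The members and the marker lists were chosen with earlier results of these data known. Every member is accounted for. Genes given in full were 16 set members, the 6 largest rises and 6 largest falls among called members of each comparison and members that went against most others. Beyond the members, up to 4 genes of a list and the 10 genes most like the members' mean could be named. Gene lists were those of other myeloid cells, neutrophils, dendritic cells, class II genes, B cells, erythroid cells, stroma, T-cell identity, NK cells and sex.

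Alternatives were trend and robust settings in eBayes, fits with more or fewer groups, quantile normalization, arrays centred on their medians, the mean of probe sets, a filter on dim genes, a covariate for the RNA integrity number, and fits lacking each array in turn. Fits without naive arrays 34 and 36, or 33 and 35, were added after the data were seen. The fitting code was tested on simulated data with known changes. Tables and figures were made with Python 3.11.15, pandas 2.3.3, numpy 2.4.6 and matplotlib 3.10.9.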

Additional observations from a re-analysis of the deposited data

Results flagged for a closer look

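Within groups of 4 arrays, 108 sets of values (36 members in 3 groups) were examined for an array whose gap to its nearest neighbour took up most of the group's range. Such a gap was found in 16 of them. The rule would flag about 1 in 20, or 5.4, if the sets were independent, which they are not. No share over all genes was computed, so the 16 cannot be read as an excess among the members. In 14 of the 16 it was transferred Stat5ca array 13 that lay below the other 3 arrays. There Adgre1 read 9.27, Spic 8.57, Slc40a1 10.00, Csf1r 10.16, C1qa 9.17, C1qb 11.36 and C1qc 10.56. Mrc1 read 8.67, Cd68 10.77, Cd5l 8.86, Fcgr1 7.62, Ctss 11.01, Cybb 10.65 and Adgre4 8.40 on the same array. The nearest other array read 10.56 for Adgre1, 10.29 for Spic and 10.67 for C1qa. The 14 values come from 1 array and are not independent of each other. The other 2 were Adgre4 on control array 2 at 72 h, at 5.33 beside 5.82 on the nearest array and under background on both, and Gpnmb on naive array 33, at 7.42 beside 7.89.

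The difference of Stat5ca from control cells was unlike at 72 h and after transfer for 7 of 36 members by the interaction in limma. Of all genes 17.8% were called, a share close to that of the members, so the count is no result particular to them. Fewer members were called when any 1 array of the 4 groups compared was left out. The change after transfer minus that at 72 h was 4.12 for Lyz2 (adjusted p = 0.00395) and 3.63 for Gpnmb (adjusted p = 2.18e-05). It was −3.41 for Vsig4 (adjusted p = 0.00102), −3.31 for Hpgds (adjusted p = 0.0150), −2.07 for Cd163 (adjusted p = 0.0440), −1.30 for Aif1 (adjusted p = 0.0421) and −0.71 for Marco (adjusted p = 0.0465). Vsig4, Cd163, Aif1 and Marco had means under background in both groups at 72 h.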

How the results depend on the processing

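No paired analysis was possible because no replicate number is shared between groups. Counts of called members are given in this order: 72 h control minus naive (20 as reported), Stat5ca minus control at 72 h (6), transferred control minus naive (14), transferred minus 72 h control (31), Stat5ca minus control after transfer (14), transferred minus 72 h Stat5ca (20), the difference of Stat5ca effects (7) and T-betKO minus Stat5ca (9). Leaving out each array gave ranges of 7 to 27, 2 to 7, 2 to 31, 27 to 31, 7 to 13, 5 to 21, 3 to 5 and 3 to 17. Where a group was left with 1 array, that array was assumed to vary like the other groups. With only the groups compared in the fit, the counts were 8, 13, 0, 35, 35, 32, 21 and 23. Without naive arrays 34 and 36 they were 13, 13, 34, 35, 34, 31, 22 and 31, and without naive arrays 33 and 35 they were 34, 16, 8, 35, 35, 32, 22 and 33. Both of these fits were chosen after seeing the data. With trend and robust settings in eBayes the first count was 13 and the third 8, with all 19 arrays in the fit the seventh was 4 (the T-betKO comparison already used 19), and with the RNA integrity number as a covariate the third was 7 and the last 1. Except for these, the counts under trend and robust settings, all 19 arrays, the integrity number, quantile normalization, centring, the mean of probe sets and leaving out dim genes were within 1.5 times those reported. Directions of called changes that turned were all in 72 h control minus naive. Without naive arrays 34 and 36, Slc40a1 changed by 0.12, Axl by 0.78, Cd68 by 1.23, Fcgr3 by 1.09, Cd14 by 0.87, Itgam by 1.08 and Cybb by 1.01. Without naive arrays 33 and 35, Hmox1 changed by −2.41. Over all members, comparisons and settings 4896 values were compared: 4132 kept direction and side of the threshold, 361 lost it, 346 gained it, 49 changed sign without being called before or after, and 8 turned direction with a call. The cause of these changes was not tested. The mean member level of each array moved by less than its group's SD under quantile normalization and with the mean of probe sets. Signal under background limits what can be said of Vsig4 and Retnla and, at 72 h, of Cd163, Spic and Slc40a1.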
